A study of Mus musculus with 4 samples.

Results

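The 59 genes described here lie at the distal end of mouse chromosome 11, from Cog1 to Tbcd, and were chosen by their read number: the stretch holds more direct RNA reads in Mov10 knockout (KO) than in wild-type (WT) embryonic stem cells. They are 59 of 13831 gene symbols with reads in the deposited table, and 59 of 163 symbols with reads in the stretch that they span. Because the members were selected on read number in KO against WT, those values are given below as a description, with no test. Poly(A) tail length was not used in that choice and was tested.

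The study read polyadenylated RNA from J1 mouse embryonic stem cells, grown in serum with LIF and with no treatment, on Oxford Nanopore direct RNA flow cells, which read each RNA molecule itself without amplification. WT and Mov10 KO each had 2 libraries, named here WT 1, WT 2, KO 1 and KO 2. How the knockout was made, how many clones it came from and whether replicates were separate cultures are not given in the sources used here, so p-values measure only the spread between these libraries, which may be technical. Mov10 is an RNA helicase that binds messenger RNAs and takes part in RNA silencing and in the restraint of retroelements. The poly(A) tail protects the 3′ end of a messenger RNA and aids its translation, and it is commonly shortened before the RNA is degraded.

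The WT libraries held 439535 and 351133 reads, and the KO libraries 683239 and 430012. Mov10 itself had 26 and 14 reads in WT and 0 and 1 in KO. All 10 pluripotency markers had reads, and their summed level was 10598 and 9456 reads per 1000000 (RPM) in WT and 8099 and 6875 RPM in KO. Of 11 feeder fibroblast markers, 3 had reads (Fn1, Sparc and Thy1; summed 449 and 403 RPM in WT, 545 and 635 RPM in KO), and the other 8, among them Col1a1, Col1a2 and Col3a1, were at 0. Trophoblast markers (4 of 6 with reads, Cdx2 and Elf5 at 0) summed to 52.9 and 69.5 RPM in WT and 48.5 and 33.1 RPM in KO, and mesoderm and neural markers (4 of 6, T and Sox1 at 0) to 32.8 and 77.8 RPM in WT and 121 and 88.3 RPM in KO. These 4 sums did not overlap between the genotypes, and their part in the results below was not tested. Of all genes tested for read number, 20% had both KO libraries above both WT libraries and 20.5% below, so little is read from this. The mesoderm and neural sum was mostly Tubb3 (13 and 25 reads in WT, 81 and 36 in KO), and the feeder sum mostly Fn1 and Sparc. In RPM, Fn1 overlapped (98 and 51 reads in WT, 162 and 112 in KO). Sparc did not (76 and 92 reads in WT, 212 and 170 in KO). Among the pluripotency markers, Utf1 (174 and 88 reads in WT, 167 and 189 in KO), Sox2, Esrrb and Fgf4 overlapped in RPM. The other pluripotency markers were lower in both KO libraries. Primitive endoderm markers (3 of 7, Sox17, Dab2, Pdgfra and Cubn at 0) summed to between 1.43 and 5.56 RPM, with overlap. In bulk libraries such as these, a change in the number of cells that carry an RNA and a change in its amount per cell cannot be told apart.

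The members share a place on the chromosome and little else. Neighbouring genes on a mammalian chromosome mostly serve unrelated functions, and the 59 range from subunits of the Golgi, the nuclear pore and the anaphase-promoting complex to enzymes of fatty acid, galactose and nucleotide metabolism. Some neighbours do share a promoter region: genes that start back to back on opposite strands, called head-to-head pairs, are common at CpG-rich promoters. Promoter windows of 250 bases before to 50 bases after the start were taken from RefSeq (GRCm38.p6) and matched 52 of the 59 members, with 70 windows. Head-to-head pairs made of members alone were 5, namely D11Wsu47e with Fam104a, Sap30bp with Recql5, Mettl23 with Jmjd6, Anapc11 with Alyref, and Gps1 with Rfng. Of the 52 members, 17 (32.7%) had overlapping windows with a gene of the opposite strand, against 21.7% of the genes tested for read number and 11.9% of the 27025 symbols with a RefSeq window.

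In 3 pairs both genes had enough reads to be tested, and they are shown because both genes had more reads in KO. For each pair only the window of the plus-strand gene (D11Wsu47e, Mettl23 or Anapc11) is printed, which overlaps the window of its partner in part. Each is the plus strand of GRCm38.p6 read 5′ to 3′, at chr11:113684184-113684483 for D11Wsu47e with Fam104a, chr11:116843265-116843564 for Mettl23 with Jmjd6, and chr11:120598171-120598470 for Anapc11 with Alyref. The start sites within a pair lay 283, 66 and 56 bases apart, and that of Fam104a lies outside the printed bases. Capitals mark matches, on either strand, to the motifs listed after the sequences.
D11Wsu47e with Fam104a: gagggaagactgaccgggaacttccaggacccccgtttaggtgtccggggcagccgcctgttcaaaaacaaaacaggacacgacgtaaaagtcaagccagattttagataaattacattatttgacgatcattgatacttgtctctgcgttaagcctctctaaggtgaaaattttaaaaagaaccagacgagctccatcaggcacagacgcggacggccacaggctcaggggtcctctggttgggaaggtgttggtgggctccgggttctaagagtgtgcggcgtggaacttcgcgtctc
Mettl23 with Jmjd6: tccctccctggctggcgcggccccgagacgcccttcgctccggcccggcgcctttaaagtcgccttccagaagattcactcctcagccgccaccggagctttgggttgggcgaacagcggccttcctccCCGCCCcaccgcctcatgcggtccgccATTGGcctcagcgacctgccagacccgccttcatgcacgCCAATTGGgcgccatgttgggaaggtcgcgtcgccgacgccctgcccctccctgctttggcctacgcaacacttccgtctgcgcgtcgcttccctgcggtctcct
Anapc11 with Alyref: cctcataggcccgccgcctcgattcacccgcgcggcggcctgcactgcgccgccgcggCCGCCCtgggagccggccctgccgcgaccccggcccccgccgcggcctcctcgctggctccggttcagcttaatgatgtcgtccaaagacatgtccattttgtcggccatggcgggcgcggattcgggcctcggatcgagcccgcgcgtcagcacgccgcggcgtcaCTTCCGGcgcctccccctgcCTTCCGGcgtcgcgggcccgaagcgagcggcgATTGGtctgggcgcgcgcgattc
The first window, that of D11Wsu47e, held none of the 7 motifs searched. The second held a GC box and 3 CCAAT boxes, a pair of which overlap in the run CCAATTGG. The third held a GC box, a CCAAT box and 2 ETS motifs, and a second annotated start of Anapc11 lies further along the same stretch. The windows of the minus-strand genes also held matches outside the printed bases. These were a GC box and an ETS motif for Fam104a, an ETS motif for Jmjd6, and a GC box and a TATA box for Alyref.

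The shares of windows with each motif are given for all 70 member windows, for the 4773 windows of genes tested for read number and for all windows, with no test. The GC box GGGCGG (the site of SP factors) was in 61.4% of member windows, in 67.0% of windows of tested genes and in 35.7% of all 32851 windows. The CCAAT box (the letters CCAAT, bound by NF-Y) was in 44.3%, 40.3% and 37.4%, and the ETS motif CCGGAAG in 25.7%, 23.0% and 8.86%. The E-box CACGTG was in 11.4%, 12.0% and 7.15%, and the NRF1 motif GCGCATGC in 7.14%, 6.24% and 2.71%. The YY1 motif AAGATGGCG was in 4.29%, 4.23% and 1.40%, and the TATA box TATAAA in 11.4% (8 windows, of which those of Anapc11 and Alyref overlap), 6.45% and 13.6%. Both strands were searched, and GC boxes and ETS motifs can overlap where their letters run into each other. The median ratio of observed to expected CpG was 0.846 in member windows, 0.815 in those of tested genes and 0.384 in all windows, so the members have CpG-rich promoters like most genes read in these cells. A match to these letters is a description of the sequence and not a site shown to be bound.

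For WT 1, member reads were 0.288% of the library (95% Wilson interval 0.273 to 0.305), and for WT 2 they were 0.306% (0.288 to 0.324). For KO 1 the share was 0.582% (0.565 to 0.601) and for KO 2 it was 0.649% (0.625 to 0.673). These intervals cover counting error only. The WT libraries had a mean share of 0.297% ± 0.0122 (SD, n = 2), the KO libraries one of 0.616% ± 0.0470 (SD, n = 2), and the ratio of the means was 2.07. The intervals of the WT libraries overlapped each other, those of the KO libraries did not, and the genotypes did not overlap. Since the members were chosen on this contrast, nothing is read from the gap between the genotypes.

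Of the 59 members, 57 had a higher mean in KO and 2, Mfsd11 and Cbx8, a lower one. Both KO libraries lay above both WT libraries for 45 members, the libraries overlapped for 13, and for Mfsd11 both KO libraries lay below both WT libraries. Over all 13831 symbols, 16.7% had both KO libraries above both WT libraries and 48.1% a higher mean in KO. Since the rule used this contrast, nothing is read from these counts. A mean of at least 10 reads, the minimum for the limma fit, was reached by 45 members. All 45 had a log2 change above 0, from 0.16 to 1.61, with a median of 0.94, quartiles of 0.68 and 1.39 and a median standard error of 0.41. In the same fit 49.4% of 4815 genes were above 0 and the median over all genes was -0.01. The change was 1 or more for 19 members, from 0.5 to 1 for 22, and below 0.5 for 4 (Rptor 0.16, Kctd2 0.29, Chmp6 0.33 and Wbp2 0.45). None of the 4815 genes passed an adjusted p of 0.05 (limma voom, Benjamini-Hochberg), a background of 0%. An unadjusted p under 0.05 was found for 498 of them (10.3%).

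Values of the same members in each library are given as a further description of the contrast that chose them, and nothing is read from them. Centred on each gene's mean, the median of the 45 members (log2) was -0.46 for WT 1 and -0.44 for WT 2, against 0.43 for KO 1 and 0.55 for KO 2. Set against WT 1, KO 1 had a median of 1.00 with 43 of 45 members higher, and KO 2 a median of 1.08 with 43 of 45 higher. Set against WT 2, KO 1 had a median of 0.88 with 45 of 45 higher and KO 2 a median of 1.00 with 44 of 45 higher. Over all 4815 genes the same 4 contrasts had medians between -0.03 and -0.01, with 47.7% to 49.7% of genes higher. The contrasts share libraries and are not independent of each other.

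Cog1 and Tbcd bound the stretch by the choice of members, so the values at its edges are a description. Gene order was taken from the RefSeq annotation of GRCm38.p6. Just inside the edge, Cog1, a subunit of a Golgi tethering complex, had 11 and 8 reads in WT and 27 and 24 in KO. Just outside it, Slc39a11, a zinc transporter, had 5 and 7 reads in WT and 11 and 8 in KO and was too low to be tested. The nearest tested gene before Cog1 was Prkar1a, a regulatory subunit of protein kinase A, with a log2 change of -0.23. Its distance from Cog1 in bases was not measured, so the place of this edge is not resolved. At the distal edge Tbcd, which folds tubulin, had 4 and 6 reads in WT and 36 and 13 in KO, and no gene beyond it was tested. The 30 tested genes before Cog1 had a median change of -0.12, with 14 higher in KO, and the 387 tested genes of chromosome 11 before Cog1 a median of 0.02. Centred on each gene's mean, the median of those 387 genes per library differed by 0.01 between KO and WT.

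The stretch also holds genes that were not named as members, and as it was itself chosen on read number their values too are a description. Of 104 such symbols with reads, 29 were tested, 28 of them had a change above 0, 19 had both KO libraries above both WT libraries, against 20% of all tested genes, and their median was 0.83. H3f3b, which encodes the replacement histone H3.3, was the exception, with 1063 and 478 reads in WT, 1506 and 680 in KO and a change of -0.06. It was chosen for mention after its values were seen. All told, 73 of 74 tested genes from Cog1 to Tbcd had a change above 0. In chromosome order, the first 15 tested members had a median of 0.77, the next 15 of 0.91 and the last 15 of 1.02.

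**Figure D1:**
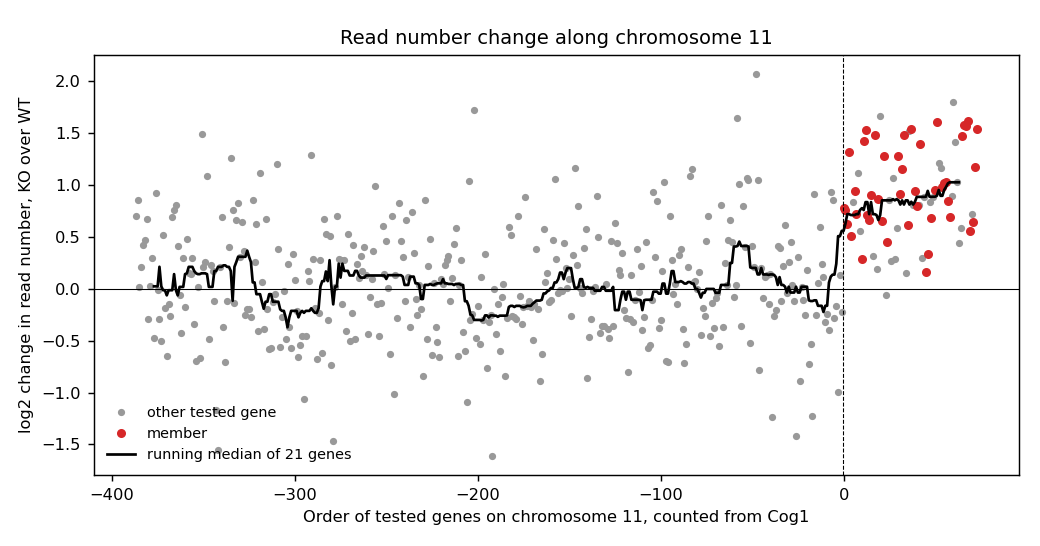
Each point is a gene tested for read number, placed by its order on chromosome 11 counted from Cog1 (horizontal axis) and by its log2 change in read number, KO over WT (vertical axis). Members are red, other genes grey, the line is the running median of 21 genes, and the dashed line marks Cog1. The 387 genes before Cog1 lie around 0 (median 0.02), and 73 of the 74 genes from Cog1 on lie above 0.

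The members are taken below by role, with the level in every library for the 15 with a mean of at least 40 reads. Levels are scaled RPM, the reads of a gene per 1000000 reads after median-of-ratios scaling. Each molecule is read once, so levels are not divided by transcript length, and genes are not compared with each other by level. In all 15, both KO libraries lay above both WT libraries, against 20% of all tested genes. The members were chosen on this contrast, so nothing is read from this, here or in the groups below.

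Genes of cell division and replication (4 members, 3 tested, median change 0.85) included some of the most read members. Birc5, or survivin, a subunit of the chromosomal passenger complex that guides chromosome segregation, had 292 and 269.5 RPM in WT and 465 and 514 RPM in KO, a log2 change of 0.79 ± 0.25 (SE). Anapc11, the RING subunit of the anaphase-promoting complex, which marks cyclins and securin for destruction, had 229 and 211 RPM in WT and 394 and 402 RPM in KO (0.85 ± 0.25). Tk1, the cytosolic thymidine kinase of the salvage pathway, had 83.2 and 91.7 RPM in WT and 178 and 159 RPM in KO (0.94 ± 0.30). Recql5, a DNA helicase, had 2 and 4 reads in WT and 7 and 7 in KO, and its scaled values overlapped.

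All 5 members of the ubiquitin and SUMO group were tested, with a median change of 0.91. Sumo2 encodes a small protein that is attached to other proteins, and it was the most read member, with 769 and 595 RPM in WT and 1056 and 1167 RPM in KO, a log2 change of 0.71 ± 0.23 (SE). Counting only its reads on transcripts with a single symbol, that change was 1.32. Gps1, a subunit of the COP9 signalosome, which removes NEDD8 from cullin ligases, had 55.5 and 69.5 RPM in WT and 164 and 185 RPM in KO (1.47 ± 0.32). Ube2o, a ubiquitin-conjugating enzyme, and Nploc4, an adaptor of the p97 segregase, had changes of 0.91 and 0.95. Kctd2, an adaptor of cullin ligases, had 8 and 6 reads in WT and 18 and 9 in KO, and was the one member of this group whose scaled libraries overlapped.

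RNA processing, export and silencing genes (7 members, 6 tested) had a median change of 1.40. Dus1l, a tRNA dihydrouridine synthase, had 30.3 and 47.2 RPM in WT and 103 and 130.2 RPM in KO, a log2 change of 1.57 ± 0.37 (SE). Cpsf4l, a relative of a cleavage and polyadenylation factor subunit, had 58.0 and 44.5 RPM in WT and 156 and 104 RPM in KO (1.32 ± 0.36). Alyref, which loads messenger RNAs for export as part of the TREX complex, had 68.1 and 75.0 RPM in WT and 143 and 152 RPM in KO (1.02 ± 0.31). Nup85, of the Y-shaped scaffold of the nuclear pore, had 88.2 and 83.4 RPM in WT and 161 and 113 RPM in KO (0.66 ± 0.32). Tnrc6c, which joins Argonaute to the deadenylases in miRNA silencing, had 7 and 2 reads in WT and 30 and 11 in KO, a change of 1.54 with a standard error of 0.81. Mif4gd, a translation factor-like protein that binds histone mRNA factors, had a change of 1.48, and Unk, an RNA-binding zinc finger protein, was too low to be tested.

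Metabolic enzymes and transporters (10 members, 8 tested) had a median change of 1.34. Fasn, the fatty acid synthase, had 27.7 and 52.8 RPM in WT and 109.9 and 121 RPM in KO, a log2 change of 1.56 ± 0.38 (SE). Galk1, the galactokinase that opens galactose use, had 101 and 91.7 RPM in WT and 244 and 227 RPM in KO (1.28 ± 0.29). P4hb, a protein disulfide isomerase of the endoplasmic reticulum that also serves in prolyl 4-hydroxylase, had 124 and 161 RPM in WT and 254 and 309 RPM in KO (0.98 ± 0.28). Slc16a3, a lactate exporter, had a change of 1.61, from 13 and 5 reads in WT and 44 and 37 in KO. That change was 2.22 without WT 1. Nt5c, a nucleotidase, Pgs1, of cardiolipin synthesis, and Prpsap1, a partner of the phosphoribosyl pyrophosphate synthetases, had changes of 1.42, 1.39 and 1.28. Slc38a10, an amino acid transporter, had 9 and 9 reads in WT and 20 and 27 in KO, a change of 0.68, or 1.30 without KO 1.

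Among the untested genes of this group, Pcyt2, of phosphatidylethanolamine synthesis, had 9 and 1 reads in WT and 15 and 6 in KO. Mfsd11, a putative transporter, was the member with both KO libraries lower, with 3 and 4 reads in WT and 5 and 3 in KO, or 7.56 and 11.1 RPM against 7.13 and 6.62 RPM. No direction is read from so few reads.

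Signalling and cytoskeletal genes (11 members, 7 tested) had a median change of 0.86. Arhgdia had 75.6 and 61.1 RPM in WT and 114 and 177 RPM in KO, a log2 change of 1.01 ± 0.34 (SE). Grb2, the adaptor that links receptor tyrosine kinases to Ras, had 14 and 25 reads in WT and 65 and 40 in KO (0.86), and Slc9a3r1, a scaffold under the membrane, had a change of 0.94. Csnk1d, casein kinase 1 delta, and Cdc42ep4, an effector of Cdc42, had changes of 0.55 and 0.51. Rptor, the defining subunit of mTORC1, had a change of 0.16, with 11 and 8 reads in WT and 20 and 13 in KO. Sphk1, a sphingosine kinase, had 0 and 0 reads in WT and 0 and 1 in KO, and Cyth1, an exchange factor for ARF GTPases, had 0 and 0 in WT and 3 and 0 in KO, so neither can be compared at this depth. Baiap2 and Rfng were also too low to be tested, and both had both KO libraries above both WT libraries.

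Chromatin and transcription genes (9 members, 6 tested) had a median change of 0.67. Both KO libraries lay above both WT libraries for 3 of the 6 tested, against 20% of all tested genes. In the other role groups every tested member but Kctd2 did so. As the members were chosen on this contrast, nothing is read from these counts. Jmjd6, a hydroxylase that acts on splicing factors, had 12 and 16 reads in WT and 50 and 45 in KO, a change of 1.15. Mettl23, a histone arginine methyltransferase, had 8 and 3 reads in WT and 30 and 17 in KO (1.48), but 19 of its 58 reads (32.8%) lay on transcripts whose reads mostly carry another symbol, so its count is uncertain. Foxk2, a forkhead factor, had a change of 0.65, and Mafg, a small Maf protein, one of 0.69 with 39 and 11 reads in KO. The changes of Wbp2, a coactivator, and of Sap30bp rested on the WT libraries, which differed widely. Wbp2 had 35 and 9 reads in WT and 56 and 24 in KO, and its change of 0.45 became -0.41 without WT 2 and 1.35 without WT 1. Sap30bp had 31 and 11 reads in WT and 49 and 42 in KO, and its change of 0.65 became 0.01 without WT 2 and 1.32 without WT 1. Cbx8 and Cbx2, the chromobox subunits that bring Polycomb repressive complex 1 to methylated histone H3, had 1 and 2 reads (Cbx8) and 2 and 4 reads (Cbx2) in WT and 4 and 1 and 8 and 3 reads in KO. Sirt7, a deacetylase of the nucleolus, had 3 and 0 reads in WT and 5 and 6 in KO.

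Vesicle and lysosome genes (7 members, 6 tested) had a median change of 0.84. Hgs, which sorts ubiquitinated receptors on endosomes as part of the ESCRT machinery, had 8 and 3 reads in WT and 31 and 20 in KO, a change of 1.60. Wdr45b, of autophagosome formation, Gga3, a Golgi sorting adaptor, and Sec14l1, a lipid-binding protein, had changes of 1.17, 0.90 and 0.61. Chmp6, an ESCRT-III subunit, had a change of 0.33 with 12 and 9 reads in WT and 23 and 18 in KO. Sgsh, a lysosomal sulfatase, had 2 and 1 reads in WT and 4 and 1 in KO.

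The 6 members with other functions (4 tested) had a median change of 0.74. Jpt1, a cytosolic protein also known as Hn1, had 98.3 and 94.5 RPM in WT and 228 and 353 RPM in KO, a log2 change of 1.53 ± 0.31 (SE). Its WT libraries were close together and its KO libraries far apart. Fam104a had 116 and 91.7 RPM in WT and 168 and 185 RPM in KO (0.76 ± 0.29). D11Wsu47e and Nat9 had changes of 0.63 and 0.72. Timp2, an inhibitor of matrix metalloproteinases, had 2 and 2 reads in WT and 9 and 1 in KO, and Narf had 5 and 3 in WT and 10 and 8 in KO.

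**Figure D2:**
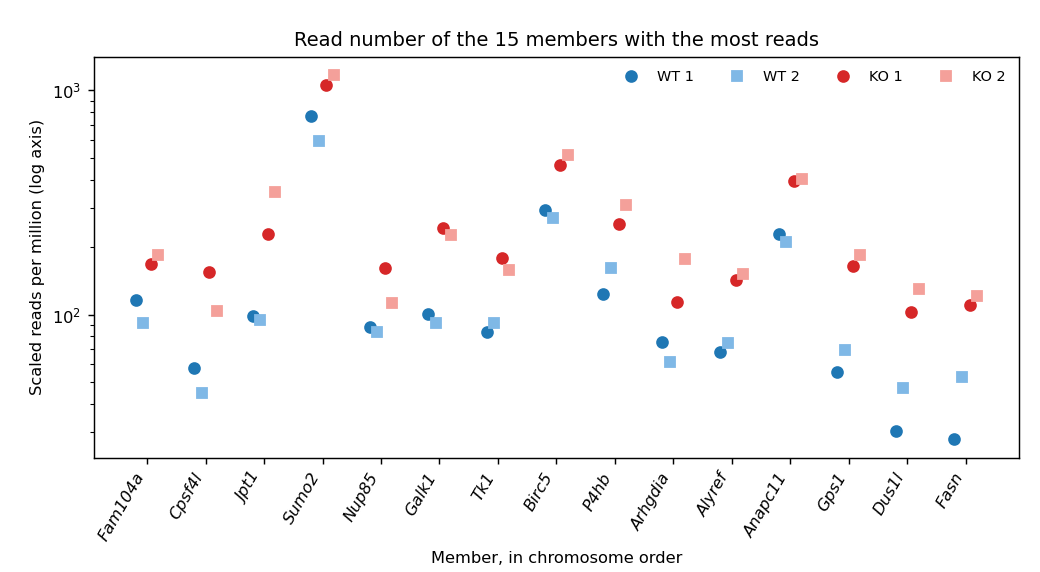
Scaled RPM (log axis) of the 15 members with a mean of at least 40 reads, in chromosome order, with 1 point per library (blue WT 1 and WT 2, red KO 1 and KO 2). For all 15 genes both red points lie above both blue points, from Sumo2 (595 to 1167 RPM) down to Fasn (27.7 to 121 RPM). The members were chosen on this contrast, so nothing is read from the gap.

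Many members are subunits of complexes or steps of pathways whose other genes mostly lie elsewhere in the genome. The other genes of 14 such complexes and pathways numbered 126 with reads, of which 89 were tested. Of the 89, 40 (44.9%) had a change above 0, against 49.4% of all tested genes, 16 (18.0%) had both KO libraries above both WT libraries, against 20%, and the median was -0.05. None passed an adjusted p of 0.05 (limma voom). The 80 tested genes off chromosome 11 had the same median, with 36 above 0. The members were chosen on this contrast and their partners were not, so nothing is read from the distance between them. Anapc11 had a change of 0.85, while the 13 other genes of the anaphase-promoting complex had a median of -0.05. Gps1 had 1.47, and the 8 other genes of the COP9 signalosome had a median of -0.06. Nup85 had 0.66, against -0.11 for the 8 other genes of the Y complex, and Birc5 had 0.79, against -0.16 for the 3 tested partners in the chromosomal passenger complex.

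Medians were also near 0 for the partners of Alyref in TREX (9 genes, -0.07), of Sumo2 in the SUMO pathway (10 genes, -0.04), of Hgs and Chmp6 in ESCRT (13 genes, -0.16), of Cbx2 and Cbx8 in Polycomb repressive complex 1 (6 genes, 0.05) and of Tk1 and Nt5c in deoxynucleotide synthesis (7 genes, -0.08). With 2 or 3 tested genes each, the partners of Cog1, Rptor and Nploc4 had medians of -0.12, -0.05 and -0.08, and for Tnrc6c a single partner was tested, Ago2 at 0.51. For the partners of Fasn in fatty acid synthesis, 4 of 8 genes with reads were tested and had a median of 0.88, and whether they differ from the other lists was not tested. These were Acly, which makes cytosolic acetyl-CoA and also lies on chromosome 11 (1.05 ± 0.31, SE), the desaturases Scd1 (0.71 ± 0.67) and Scd2 (1.48 ± 0.38), and the elongase Elovl6 (0.23 ± 0.43). None of the 4 passed the threshold, and the adjusted p of Scd2 was 0.158 (limma voom).

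**Figure D3:**
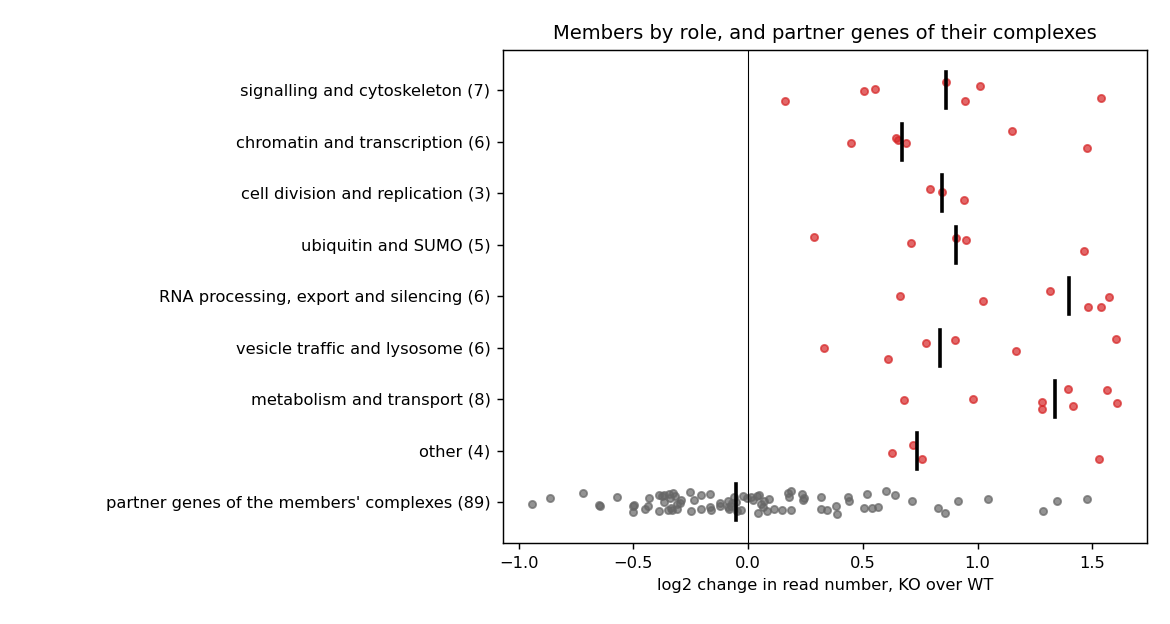
Log2 change in read number, KO over WT (horizontal axis), of the tested members by role (red) and of the 89 tested partner genes of their complexes and pathways (grey). Points are genes with the number tested in brackets, spread vertically for sight only, and black bars are medians. All red points lie above 0, with group medians from 0.67 to 1.40, and the partner genes have a median of -0.05. The members were chosen on this contrast, so nothing is read from the distance between red and grey points.

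The deposited table also gives the authors' classes of genes by Mov10 binding and the RNA modification m6A. The tested members held 16 Mov10 targets with m6A (35.6%, against 18.8% of all tested genes), 8 targets without m6A (17.8%, against 34.0%), 16 non-targets (35.6%, against 31.4%) and 5 genes in no class. The median change of members was 0.73 in targets with m6A, 0.92 in targets without m6A and 1.30 in non-targets. Over all tested genes the medians ran in the opposite order, 0.17, 0.01 and -0.10. Members of every class had a median above that of their class, which follows from their choice on read number. These class medians are a description with no test, and nothing is read from them or from their order.

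Tail length, which did not enter the choice of members, was tested for the 12 members with at least 20 reads in each library. None passed an adjusted p of 0.05 (limma on log2 median tail length, 1935 genes, background 0%), and none had an unadjusted p under 0.05, against 45 genes (2.33%). All 12 had an adjusted p of 0.9998. The 12 log2 changes ran from -0.14 for P4hb to 0.24 for Fam104a with a median of 0.04, 8 of them above 0, against a median of 0.01 and 51.8% above 0 for all tested genes. The median standard error was 0.16, and the changes of Fam104a (0.24 ± 0.16) and Galk1 (0.21 ± 0.16) were larger than their own standard error.

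The shortest tails among these members were those of Galk1, with medians of 78.4 and 70.4 nt in WT and 86.8 and 84.5 nt in KO. Averaged over the libraries, they lay at percentile 2.12 of the tested genes. Alyref had the longest, 159.7 and 123 nt in WT and 139 and 132 nt in KO, at percentile 96.9. Members of the same stretch thus lay near both ends of the range of tail lengths. Both KO libraries were longer than both WT libraries for Galk1, for Fam104a (88.4 and 76.8 nt in WT, 100.3 and 94.3 nt in KO) and for Tk1 (98.0 and 104 nt in WT, 115 and 110.2 nt in KO), 3 of 12 against 14.7% of tested genes. For the other 9 the libraries overlapped.

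In Jpt1, the medians were 103 and 80.0 nt in WT and 97.8 and 91.1 nt in KO, and in Gps1 99.5 and 96.8 nt in WT and 119 and 99.4 nt in KO. Sumo2, with the most reads and so the most precise medians, had 115 and 109 nt in WT and 114 and 96.9 nt in KO. Birc5 had 111 and 109.9 nt in WT and 116 and 107 nt in KO, and Anapc11 100.2 and 122 nt in WT and 114 and 111 nt in KO. In these 5 genes the WT and KO libraries overlapped in tail length. They did not overlap in read number, but the members were chosen on read number, so nothing is read from this difference.

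With all 59 members pooled in each library, the median tail was 106 nt in both WT libraries, 110.0 nt in KO 1 and 100.1 nt in KO 2, so the WT values lay between the KO values. Reads with tails under 30 nt made up 2.92% and 4.75% of member reads in WT and 2.29% and 4.16% in KO, and reads with tails of 150 nt or more 25.7% and 26.4% in WT and 25.9% and 22.0% in KO. Both shares overlapped between the genotypes. With a lower minimum of 10 reads in each library, 25 members were tested and none passed (background 0.0299%). Of the 25, 17 had a log2 change above 0, against 49.1% of 3344 genes, and the median was 0.05. Both KO libraries were longer than both WT libraries for 7 (14.7% of all genes) and shorter for 0 (14.3%). An unadjusted p under 0.05 was found for 3.8% of all genes. The single member with an unadjusted p under 0.05 was Dus1l, with 77.3 and 67.1 nt in WT and 108 and 88.9 nt in KO (log2 change 0.44, adjusted p = 0.997 by limma).

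**Figure D4:**
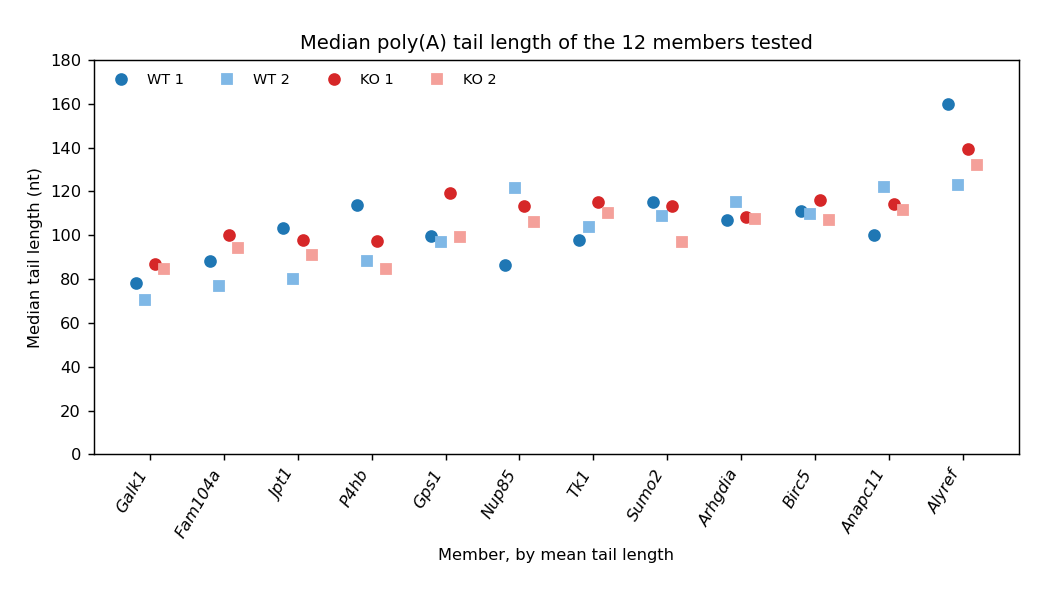
Median poly(A) tail length in nt (vertical axis) of the 12 members with at least 20 reads in each library, ordered by mean tail length, with 1 point per library (blue WT 1 and WT 2, red KO 1 and KO 2). WT and KO points are interleaved for 9 of the 12, and the red points of Galk1, Fam104a and Tk1 lie above the blue ones.

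Reads of some members fell on several annotated transcripts. Galk1, Wbp2 and Slc9a3r1 had all reads on 1 annotated transcript. Sumo2 was split over 5 transcripts, of which the most used held 83.6% and 68.7% of its reads in WT and 61.5% and 68.4% in KO. Anapc11's most used transcript held 47.3% and 42.1% in WT and 51.1% and 56.6% in KO. Both KO shares lay below both WT shares for Sumo2, by a narrow margin between WT 2 and KO 2, and above them for Anapc11, and no test was made. They also lay below for Arhgdia (86.7% and 77.3% in WT, 58.8% and 70.0% in KO), Alyref, Jpt1, Sec14l1 and Slc16a3. How often such shares fail to overlap over all genes was not counted, so no change in transcript use is read from them.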

How the data were processed

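The deposited table gives 1 row per direct RNA read with a transcript, a gene symbol, the library, a tail length in nt estimated by the authors and the authors' deposited gene classes, per the file headers. It holds no counts and no normalization is recorded. RNA was selected on oligo(dT) beads, per the labels' protocols, and minimap2 2.20 is named without a role, per the submitters' processing notes. Basecaller, tail estimator, genome build and annotation are not given in the sources used here. All 1903919 reads with a tail above 0 nt were used.

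Reads per gene were counted here and fitted with limma 3.58.1 voom in R 4.3.3 (0.5 reads added, median-of-ratios scaling, mean of at least 10 reads). Log2 median tail length was fitted with limma, with read number as trend covariate, where each library had at least 20 reads of the gene. Benjamini-Hochberg adjustment covered all genes of a fit, and the threshold was 0.05. Both fits used the 4 libraries without a block, because same-numbered libraries did not deviate together. Replicates differed beyond sampling noise (chi-square per degree of freedom 5.37 in WT and 2.16 in KO). On simulated data the read number fit recovered 15.9% of log2 changes of 1 and 87.2% of changes of 2 over 4553 genes with 6 false calls, and the tail fit 46% of changes of 0.5 and 99% of changes of 1 over 1935 genes with 6 false calls. Each simulation used a fixed spread, the same for every gene and both genotypes, so these rates may not hold for these data.

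Values in every library are given for members with a mean of at least 40 reads, for members lower in KO and for the 3 with the fewest reads. Library values of further members were added after their values were seen. The members and all gene lists were chosen with earlier results of these data known. Tables were handled with Python 3.11.15 and pandas 2.3.3.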

Additional observations from a re-analysis of the deposited data

How the results depend on the processing

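The number of genes past the threshold for read number, 0 of 4815 in the fit reported, was 7 with scaling by total reads, 1 with scaling from genes off chromosome 11, 96 with no filter, 1 when a symbol had to hold 90% of the reads of its transcript (an alternative chosen after seeing the data), and between 0 and 451 when a library was left out (93 without WT 1, 451 without WT 2, 0 without either KO library). With the library number as a replicate block it was 66, although same-numbered libraries share only a number (correlation of deviations 0.016 for read number and 0.013 for tail length), and with the block the median change of the members was 0.94. That median, 0.94 as reported, was 1.06 under total-read scaling (where the all-gene median was 0.11), 0.85 with no filter (all 59 members), 1.02 at a mean of at least 50 reads (12 members) and 0.88 to 1.10 with a library left out. Its distance from the rest of chromosome 11, 0.89, was 0.85 with no filter, 0.96 at 50 reads and 0.86 to 0.97 with a library left out. At 50 reads, 12 of 12 members in place of 41 of 45 had both KO libraries higher, since fewer genes were tested. Of 495 values for single members under the alternatives, 478 moved by less than 1 standard error of the reported value and 1 was below 0 (Wbp2 without WT 2, -0.41). For tail length, 1 gene passed at a minimum of 10 reads (Nae1, not a member), and 0 to 2 with a library left out. Of 133 tail values of members, 10 changed sign, and adjusted p-values ran from 0.524 to 0.9999 (limma). With the mean of log2 lengths, Anapc11 was at -0.034 and Alyref at 0.0049. With a library left out, the change ran from -0.32 to 0.038 for P4hb, -0.15 to 0.34 for Nup85, -0.11 to 0.17 for Anapc11, -0.24 to 0.14 for Alyref, -0.13 to 0.24 for Jpt1, -0.093 to 0.012 for Arhgdia, -0.044 to 0.075 for Birc5 and -0.21 to 0.020 for Sumo2. The cause of these differences was not tested. Leaving out a library left 1 in its group, assumed to vary like the other genotype. Depth limits the 14 members under 10 reads, whose direction cannot be read.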
